A study of Homo sapiens with 38 samples.

Results

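The 9 genes described here encode secreted or membrane-bound messengers that T cells make after activation: IL2, IL21, TNF, LTA, LTB, IFNG, CSF2, IL3 and IL10. They were examined in Jurkat, an established line of human T-cell leukaemia, by chromatin immunoprecipitation and sequencing (ChIP-seq). All groups used here were wild-type cells that carried a control lentivirus (Ctrl_LV) and were stimulated with 50 ng/ml of PMA plus 500 ng/ml of ionomycin. Sample labels give a stimulation of 5 hours where the protocol text gives 2 hours, and which applies was not resolved. The members of the analysis were all listed regions within 50 kb of a RefSeq gene record on either side: 48 of 29009 GATA3 regions, 39 of 26205 BHLHE40 regions and 88 of 113570 H3K27ac regions. The 9 windows form 6 loci, because those of TNF, LTA and LTB overlap, as do those of IL3 and CSF2.

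PMA activates protein kinase C and ionomycin raises intracellular calcium, so that together they replace the signal of the T-cell receptor. Transcription of the cytokine genes then depends on NFAT, AP-1 and NF-kB, which act at promoters and at enhancers that can lie far from the gene. GATA3 is a zinc-finger factor that binds GATA sequences and directs type 2 helper T-cell differentiation. BHLHE40 is a basic helix-loop-helix factor that binds E-boxes, is induced by T-cell activation, and is known in mouse T cells for supporting GM-CSF and interferon gamma production and restraining IL-10. Acetylation of histone H3 at lysine 27 (H3K27ac) marks active promoters and enhancers.

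Each list came from a group of 2 samples and holds 1 value per region, so no value has a replicate spread, no test was possible, and the depth of the samples is unknown. The signal value of a region is the authors' measure of its enrichment, and it was used only within a list. Coordinates are GRCh38 and 1-based, and a gene start is one listed in the RefSeq promoter table. Distances run from a region's summit to the nearest listed start unless an edge is named. Within 1 kb of the gene record, 57.7% of protein-coding genes had a BHLHE40 region, 73.5% an H3K27ac region and 42.8% a GATA3 region. Of 9 T-cell marker genes, 9 had BHLHE40, 9 H3K27ac and 6 GATA3 (CD3D, CD3E, CD2, LCK, ZAP70 and CD28). CD3G, CD5 and CD7 had no GATA3 region. Of 6 myeloid markers, 1 had BHLHE40 (SPI1), 2 H3K27ac (ITGAM and SPI1) and 3 GATA3 (CSF1R, ITGAM and SPI1), and no list had a region at CD14, MPO or LYZ. These marker counts use the whole record, a choice made after seeing the data.

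The sequences before 5 of the starts are shown so that those covered by both factors can be read beside those that no region covers. The 250 bases before the starts of IL2 (chr4:122456726-122456975, minus strand) and IL3 (chr5:132060405-132060654, plus strand) lay wholly inside regions of both factors. Those of CSF2 (chr5:132073539-132073788, plus strand), IFNG (chr12:68159741-68159990, minus strand) and TNF (chr6:31575315-31575564, plus strand) overlapped no region of any list, although a GATA3 region lay 346 bp inside TNF. The sequences are from RefSeq (GRCh38.p14) and run 5′ to 3′ up to the base before the start. Capitals mark matches on either strand to a GATA sequence (GATA preceded by T or A and followed by A or G), to the E-box CACGTG, to the AP-1 sequence TGANTCA and to the NFAT core GGAAA.
IL2: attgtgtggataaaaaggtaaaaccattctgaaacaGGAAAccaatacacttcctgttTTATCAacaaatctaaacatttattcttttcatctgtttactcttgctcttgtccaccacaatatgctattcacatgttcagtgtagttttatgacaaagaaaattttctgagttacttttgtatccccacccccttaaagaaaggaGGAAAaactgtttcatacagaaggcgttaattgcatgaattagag
IL3: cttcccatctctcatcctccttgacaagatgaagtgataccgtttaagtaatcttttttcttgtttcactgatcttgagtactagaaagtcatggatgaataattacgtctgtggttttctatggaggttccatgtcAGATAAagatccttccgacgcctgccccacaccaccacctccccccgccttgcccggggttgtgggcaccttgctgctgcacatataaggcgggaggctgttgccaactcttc
CSF2: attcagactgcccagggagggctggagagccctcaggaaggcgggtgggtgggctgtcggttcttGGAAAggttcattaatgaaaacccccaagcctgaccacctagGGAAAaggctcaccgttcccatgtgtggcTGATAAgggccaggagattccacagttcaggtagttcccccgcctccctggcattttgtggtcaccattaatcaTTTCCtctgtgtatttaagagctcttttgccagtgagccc
IFNG: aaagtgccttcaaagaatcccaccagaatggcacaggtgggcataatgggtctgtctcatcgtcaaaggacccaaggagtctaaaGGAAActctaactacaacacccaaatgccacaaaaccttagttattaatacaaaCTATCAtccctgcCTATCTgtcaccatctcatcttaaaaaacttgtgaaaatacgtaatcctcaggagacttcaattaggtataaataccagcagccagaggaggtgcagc
TNF: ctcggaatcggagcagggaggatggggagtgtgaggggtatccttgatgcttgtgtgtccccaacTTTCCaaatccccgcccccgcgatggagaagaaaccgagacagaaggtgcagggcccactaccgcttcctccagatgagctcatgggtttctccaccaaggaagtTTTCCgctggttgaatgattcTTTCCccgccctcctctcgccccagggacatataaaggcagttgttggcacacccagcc

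A GATA sequence was present before 4 of the 9 genes, at 192 to 187 bases before the IL2 start, 113 to 108 before IL3, 114 to 109 before CSF2, and 111 to 106 and again 98 to 93 before IFNG. Over all 35116 promoter sequences in the RefSeq table, 22.3% held one in the same 250 bases. The share was 23.7% of the 1893 that held a GATA3 summit and 22.2% of the others. The GATA sequences of IL2 and IL3 lay in GATA3 regions, whereas those of CSF2 and IFNG did not. The E-box CACGTG, the class of sequence that BHLHE40 binds, was in none of the 250-base sequences before the 9 genes' listed starts. The further starts of LTA, LTB and IL10 were included, and sequence elsewhere in the 50 kb windows was not searched. It was in 6.34% of all promoter sequences, and in 11.9% of the 6705 that held a BHLHE40 summit. The relaxed E-box CANNTG, of which CACGTG is 1 form, matched before IL2, IL21, CSF2, LTA, TNF, LTB, IFNG and IL10, but not before IL3. It was in 61.8% of promoter sequences, in 53.6% of those with a BHLHE40 summit and in 63.7% of those without. An AP-1 sequence was found before 1 member start only, an IL10 start inside the gene, as TGAGTCA at 69 to 63 bases before it, against 6.57% of promoter sequences. The NFAT core matched before 8 of the 9 genes, IL3 being the exception, and was in 55.6% of promoter sequences. The NF-kB sequence, GGG and CC separated by 5 bases of any kind, matched before IL21, CSF2, LTA, TNF and LTB, and was in 54.4%. A gene was counted if any of its listed starts had a match, and IL10, LTA and LTB have more than 1. The shares are per promoter sequence, so counts and shares differ in unit. These matches describe letters and do not show occupancy.

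The cytokine windows held more regions than most windows of protein-coding genes, with IFNG as the exception for H3K27ac. The median over 20050 protein-coding windows built in the same way was 0.99 GATA3, 1.62 BHLHE40 and 5.91 H3K27ac regions per 100 kb. All 9 members lay above the median for both factors and 8 of 9 for H3K27ac. This holds for 50 kb on each side: with 20 kb the IFNG window held 0 GATA3, 0 BHLHE40 and 1 H3K27ac region. For GATA3 the densities ran from 4.76 per 100 kb at IFNG to 12.7 at CSF2, and all 9 were above the upper quartile of 2.34. A density as high as that of CSF2 was reached by 0.0299% of protein-coding windows, that of IL3 by 0.110% and that of IFNG by 5.03%. For BHLHE40 the range was 2.86 at IFNG to 9.77 at CSF2, and 8 of 9 members exceeded the upper quartile of 3.10. For H3K27ac the IFNG window had 5.72 regions per 100 kb, a density reached by 51.6% of protein-coding windows, whereas the other 8 windows had 11.7 to 17.5. The windows of TNF, LTA and LTB shared most of their regions, as did those of IL3 and CSF2, so these values are not independent.

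**Figure D1:**
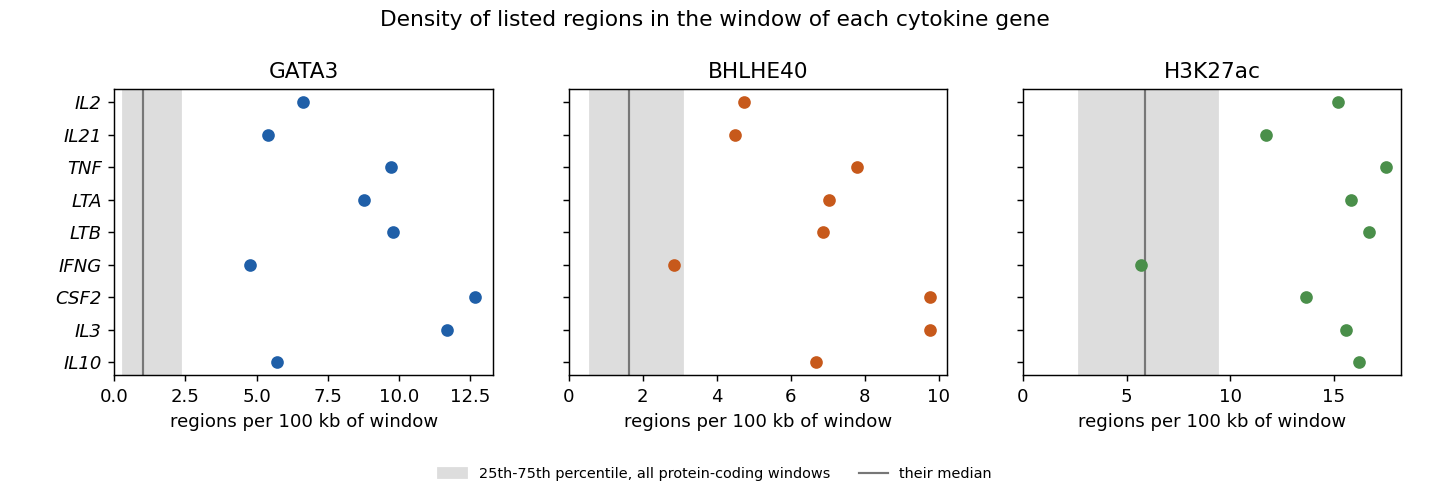
Regions per 100 kb of window for each of the 9 genes (points) in the GATA3, BHLHE40 and H3K27ac lists. The grey band spans the 25th to 75th percentile of 20050 protein-coding windows and the line is their median; IFNG lies in the band for BHLHE40 and H3K27ac, and the other 8 genes lie above it in all 3 lists.

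Few of these regions lay at the cytokine genes' own starts, which are a small part of windows 102 to 114 kb long. Of the 48 GATA3 regions, 45 had their summit more than 1 kb from every member start and 35 more than 10 kb away. The counts were 36 and 28 of 39 for BHLHE40, and 83 and 66 of 88 for H3K27ac. The same counts over all protein-coding windows were not computed, so these do not set the cytokine genes apart. A GATA3 region came within 1 kb of a start in 4 of 9 genes (IL2, TNF, LTA and IL3), beside 23.7% of the 15843 protein-coding genes with a listed start. A BHLHE40 region did so in 3 of 9 (IL2, IL3 and IL10), beside 49.6% of protein-coding genes. An H3K27ac region did so in 3 of 9 (IL2, LTA and IL10), beside 57.6%. IL2 alone among the 9 had all 3, as did 3468 of the 15843 protein-coding genes. IL21, LTB, IFNG and CSF2 had none, a state shared by 40.1% of protein-coding genes. With 9 genes and no replicate values, these counts describe the set and were not tested.

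**Figure D2:**
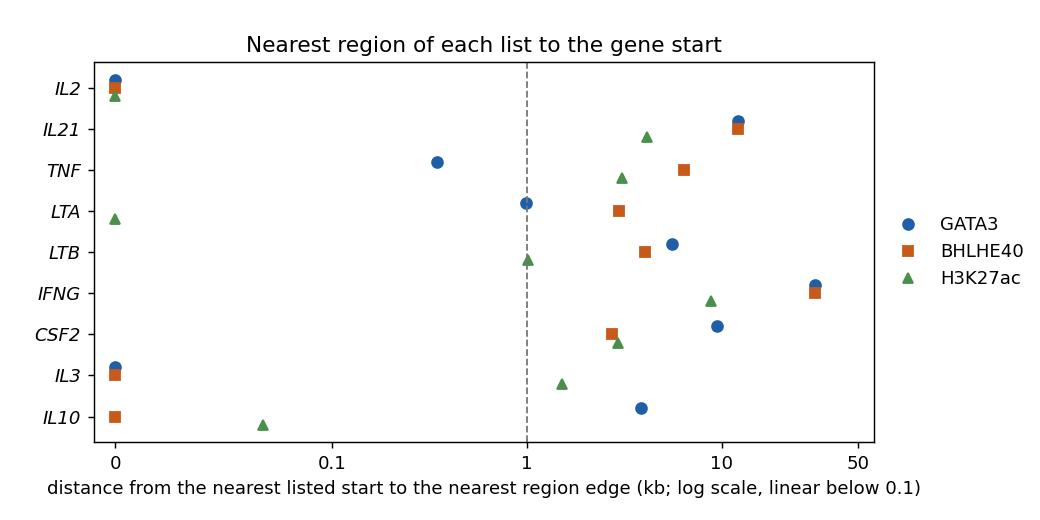
Distance in kb from the nearest listed start of each gene to the nearest edge of a GATA3 (circles), BHLHE40 (squares) or H3K27ac (triangles) region, on an axis that is logarithmic above 0.1 kb; the dashed line is 1 kb. All 3 lists reach the IL2 start, whereas the nearest factor regions to IFNG are 29.9 and 30.0 kb away.

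IL2 encodes the growth factor that activated T cells use to proliferate. Its record (chr4:122451470-122456725, minus strand) had 7 GATA3, 5 BHLHE40 and 16 H3K27ac regions in its window. The highest signals of all 6 loci for both factors were here, at a place 46.7 kb upstream of the IL2 start and in no gene record. GATA3 had a signal of 140.9 there (chr4:122503005-122504271), rank 74 of 29009, and BHLHE40 had 85.3 (chr4:122502898-122503807), rank 74 of 26205. The factor summits were 31 bp apart, and an H3K27ac region with a signal of 7.14 and a −log10 q of 39.7 overlapped both. Just outside the window, 618 bp beyond its edge, lay a GATA3 region with a signal of 144.1, which overlapped a BHLHE40 region of 29.9. It was not counted, so the 50 kb limit cuts between 2 strong neighbouring regions.

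At the IL2 start itself the signals were lower. The GATA3 region over it (chr4:122456089-122457227) had a signal of 28.3, with its summit 261 bp inside the gene. A weaker GATA3 region of 5.99 lay 857 bp inside. The BHLHE40 region over the start (chr4:122452889-122457130) had a signal of 8.73 and a summit 152 bp upstream. It was 4242 bp wide, which 0.53% of BHLHE40 regions reached, and covered 73.0% of the IL2 record. Another BHLHE40 region of 4.36 met the far end of the gene. The H3K27ac region over the start (chr4:122456096-122457545) had a signal of 2.93 and a −log10 q of 7.80, rank 81937 of 113570 by signal. Another, of 2.39 (chr4:122455617-122455847), lay 878 bp inside the gene. IL2 thus had a broad and modest BHLHE40 region over the gene and a narrower, much higher one far upstream. The upstream region was 910 bp wide, above the list median of 739 bp. Between them, at 9.7 kb upstream, GATA3 had 30.3 and BHLHE40 5.62, with summits 3 bp apart, under an H3K27ac region of 3.16. At 23.5 kb upstream BHLHE40 had 6.998, with GATA3 at 8.77.

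IL21 encodes a cytokine that helps B cells and sustains cytotoxic T cells, and its record (chr4:122610108-122621066, minus strand) had no region of any list within 1 kb. The window held 6 GATA3, 5 BHLHE40 and 13 H3K27ac regions. The strongest BHLHE40 region, 38.4 (chr4:122577643-122579195), rank 730, lay 42.4 kb downstream of the start, outside every gene record. It overlapped a GATA3 region of 20.2 and an H3K27ac region of 9.70 with a −log10 q of 100.6. The GATA3 region ranked 6494 in its list, so the ranks of the factors differed here, whereas they were equal at the distal IL2 place. A GATA3 region of almost the same signal, 20.1 (chr4:122633145-122633795), lay 12.4 kb upstream within the record of the antisense gene IL21-AS1. It overlapped a BHLHE40 region of 6.92 and no H3K27ac region. BHLHE40 had 7.21 at 36.5 kb downstream. The other GATA3 regions of the window had signals from 5.62 to 7.36, all below the list median of 11.2.

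IL3 and CSF2, which encode the growth factors interleukin 3 and GM-CSF for myeloid cells, lie next to each other on chromosome 5. Their joint locus held 14 GATA3, 11 BHLHE40 and 18 H3K27ac regions. At the start of IL3 (chr5:132060655-132063204, plus strand) GATA3 had a signal of 26.0 (chr5:132060085-132060771) and BHLHE40 8.74 (chr5:132060223-132060711). Their summits were 172 and 169 bp upstream, 3 bp apart, and no H3K27ac region was listed there; the nearest was 1513 bp away. The strongest GATA3 region of the locus, 79.9 (chr5:132055832-132056932), rank 499, lay 4.1 kb upstream of IL3, with BHLHE40 at 15.6 and H3K27ac at 4.74. Both places are within the record of LOC105379174, an uncharacterised gene.

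CSF2 (chr5:132073789-132076170, plus strand) had no region within 1 kb of its start. The nearest was a BHLHE40 region of 5.98 at 3.0 kb upstream (chr5:132070672-132071044) with neither GATA3 nor H3K27ac. Downstream of CSF2 the regions clustered. GATA3 had 40.4 at 9.7 kb without BHLHE40, and 53.2 at 30.0 kb (chr5:132103060-132104276), rank 1304. The latter overlapped a BHLHE40 region of 21.2 and an H3K27ac region of 7.10 whose −log10 q of 121.6 was the highest outside the TNF locus. At 41.0 kb GATA3 had 26.9 and BHLHE40 21.4, with summits 4 bp apart. BHLHE40 had 15.7 at 25.5 kb without GATA3. The strongest regions of both windows lay away from the genes' starts, but the IL3 start was covered by both factors and the CSF2 start by neither.

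TNF, LTA and LTB encode tumour necrosis factor and the lymphotoxins alpha and beta, related ligands that drive inflammation and the formation of lymphoid tissue. They lie together on chromosome 6, and their joint locus held 10 GATA3, 8 BHLHE40 and 18 H3K27ac regions. Of these, 4, 5 and 9 came within 1 kb of the start of another gene, more than in all other loci together, where the counts were 2, 2 and 4. The highest signals of the locus were among them. GATA3 had 42.8 at DDX39B, an RNA helicase gene, and 38.1 at NFKBIL1 and ATP6V1G2. BHLHE40 had 25.5 at PRRC2A, where H3K27ac reached 16.8, its highest signal in any of the 6 loci, and 15.8 at NFKBIL1 and ATP6V1G2.

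At TNF itself (chr6:31575565-31578336, plus strand) a GATA3 region of 13.7 (chr6:31575911-31576849) lay inside the gene with its summit 746 bp from the start. It overlapped neither BHLHE40 nor H3K27ac, and the nearest regions of those lists were 6429 and 3058 bp from the start. At LTA (chr6:31560610-31574324, plus strand, listed starts at 31572099 and 31572289) an H3K27ac region of 5.52 with a −log10 q of 24.6 spanned both starts without either factor. A GATA3 region of 31.3 (chr6:31570627-31571104) stood alone with its summit 1217 bp upstream, and its edge was 995 bp away, just inside the limit. The strongest shared place near these genes was 3.3 kb upstream of the LTA starts, with GATA3 at 30.5 (chr6:31568318-31569180), BHLHE40 at 14.1 and H3K27ac at 5.60. This place lies within the long LTA record and within that of LOC100287329. LTB (chr6:31580558-31582425, minus strand) had no factor region over its record, and an H3K27ac region of 3.54 lay 1012 bp inside the gene, just outside the limit.

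IFNG encodes interferon gamma, the activator of macrophages, and its window was the sparsest of the 9, with 5 GATA3, 3 BHLHE40 and 6 H3K27ac regions. Its record (chr12:68154768-68159740, minus strand) had no region within 1 kb, and its nearest H3K27ac region was 8790 bp from the start. The sparse window nevertheless held strong factor regions. At 43.9 kb upstream, within the record of the neighbouring cytokine gene IL26, GATA3 had 89.3 (chr12:68203110-68204134), rank 360, and BHLHE40 had 41.5 (chr12:68203277-68204048), rank 606. The summits were 3 bp apart. The H3K27ac region there had a signal of 3.40 and a −log10 q of 3.54, weaker than the one at the distal IL2 place (7.14). The other shared places were 30.2 kb upstream (GATA3 14.2, BHLHE40 17.3) and 40.3 kb downstream (GATA3 28.0, BHLHE40 9.0). All 3 BHLHE40 regions overlapped both GATA3 and H3K27ac, and only 1 of the 6 H3K27ac regions had a −log10 q of at least 5.

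IL10 encodes a cytokine that restrains inflammation. Its window held 6 GATA3, 7 BHLHE40 and 17 H3K27ac regions, and thus more BHLHE40 than GATA3 regions. No other of the 9 had this order at 50 kb, but it also held for IL21 at 20 kb (2 against 1) and for TNF, LTA and LTB at 100 kb (15 against 12). At its record (chr1:206767602-206772494, minus strand) a BHLHE40 region of 11.2 (chr1:206770318-206771053) covered a listed start inside the gene, at 206770603. The summit was 70 bp upstream of that start, beside the AP-1 sequence at 69 to 63 bases before it. No GATA3 region overlapped it, and the 2 H3K27ac regions that did had signals of 2.43 and 2.59, below the list median of 3.31. A start of IL19, the next gene, also lies within 1 kb, so the region cannot be assigned to IL10 alone. At the outermost IL10 start no factor region was within 1 kb. Upstream, within the IL19 record, BHLHE40 had its highest signal of the locus, 13.0, at 30.9 kb, with GATA3 at 10.3 and H3K27ac at 7.15. GATA3 had 21.2 at 44.5 kb upstream and 19.1 at 15.7 kb upstream, the latter with BHLHE40 at 8.98 and no H3K27ac. Its highest signal, 33.1, was 53.2 kb downstream inside MAPKAPK2, a kinase gene. That region met the window only at the window's edge, and its summit lay outside. Among GATA3 regions with their summit in the window, the highest signal was the 21.2. BHLHE40 also had 10.3 at 4.1 kb downstream of the start.

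**Figure D3:**
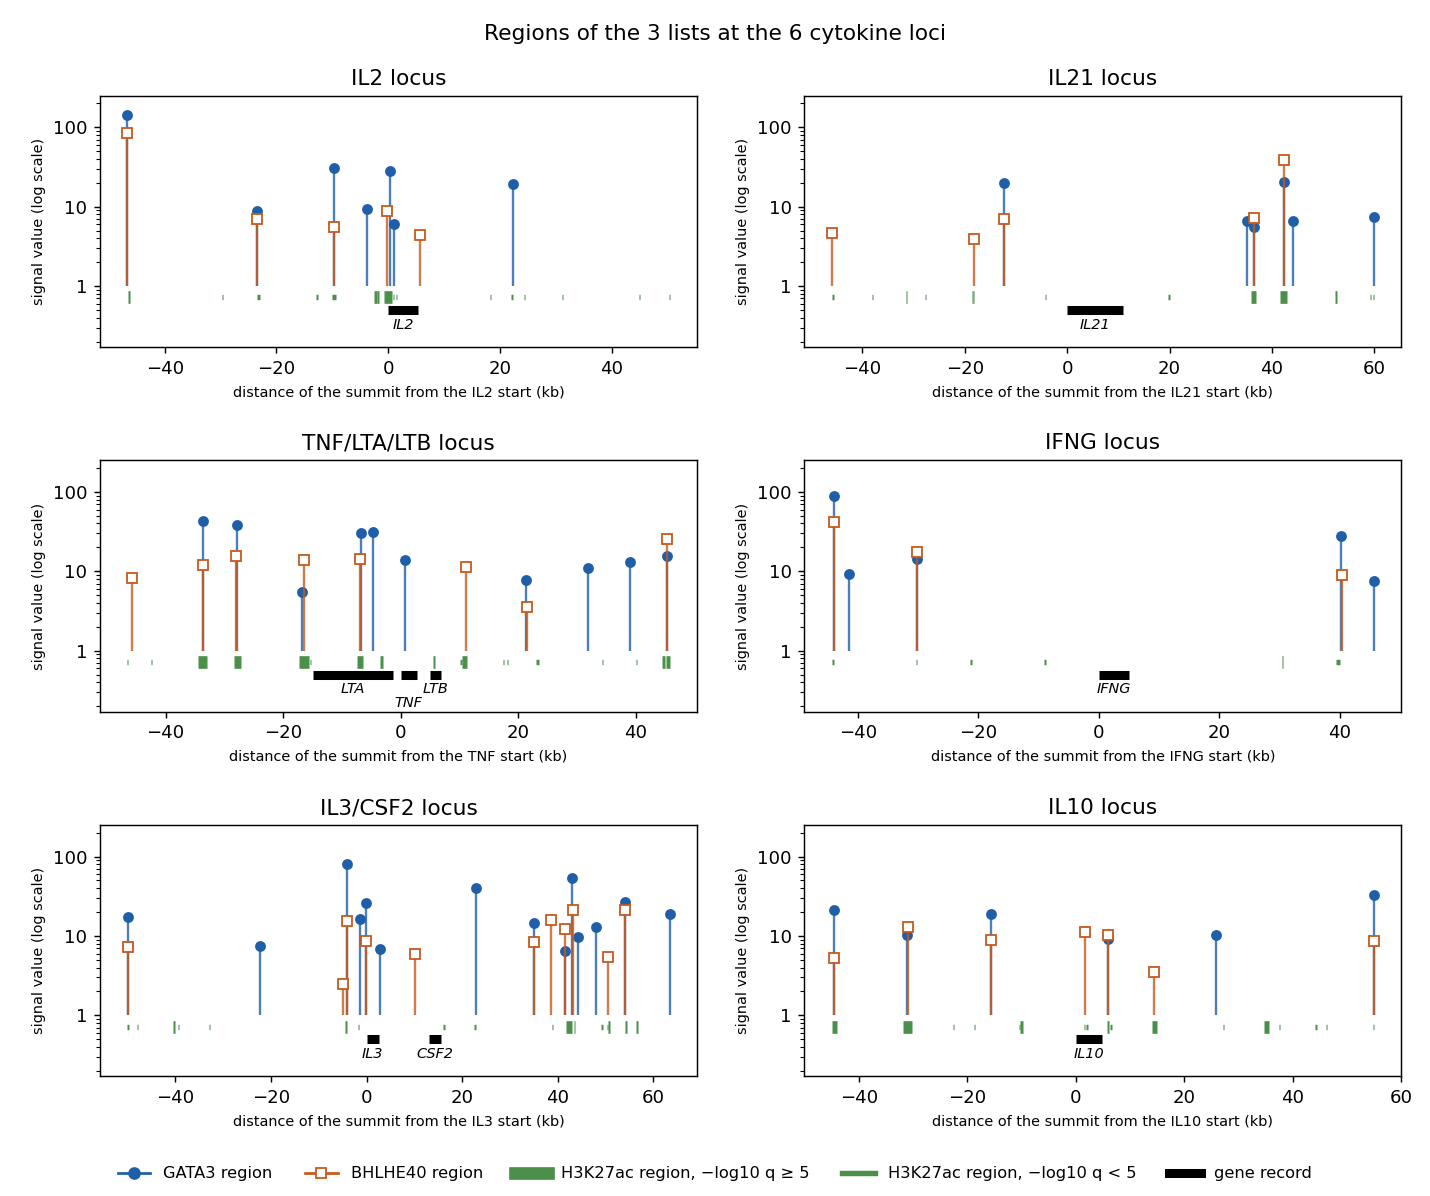
Signal value (log scale) of each GATA3 region (filled circles) and BHLHE40 region (open squares) at the 6 loci against the distance in kb of its summit from the named start, with upstream to the left. Green bars below are H3K27ac regions (thick where −log10 q is at least 5) and black bars are gene records; the highest stems stand 46.7 kb upstream of IL2 and 43.9 kb upstream of IFNG.

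The 2 factors often shared places at these loci. Of the GATA3 regions, 30 of 48 (62.5%, exact binomial 95% interval 47.4 to 76.0) overlapped a BHLHE40 region by at least 1 bp, beside 48.7% of the whole list. Of the BHLHE40 regions, 29 of 39 (74.4%, 57.9 to 87.0) overlapped GATA3, beside 53.0%. The interval covers counting error only and treats regions of a locus as independent. The whole-list share lay inside the first interval and below the second, and no test of the difference was made. Summits of the 30 shared GATA3 regions were a median of 33 bp from the BHLHE40 summit, and 20 were within 50 bp. The median over the 14123 shared regions of the whole list was 35 bp. By locus the shared GATA3 regions numbered 5 of 7 at IL2, 3 of 6 at IL21, 8 of 14 at IL3 and CSF2, 6 of 10 at TNF, LTA and LTB, 3 of 5 at IFNG and 5 of 6 at IL10.

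**Figure D4:**
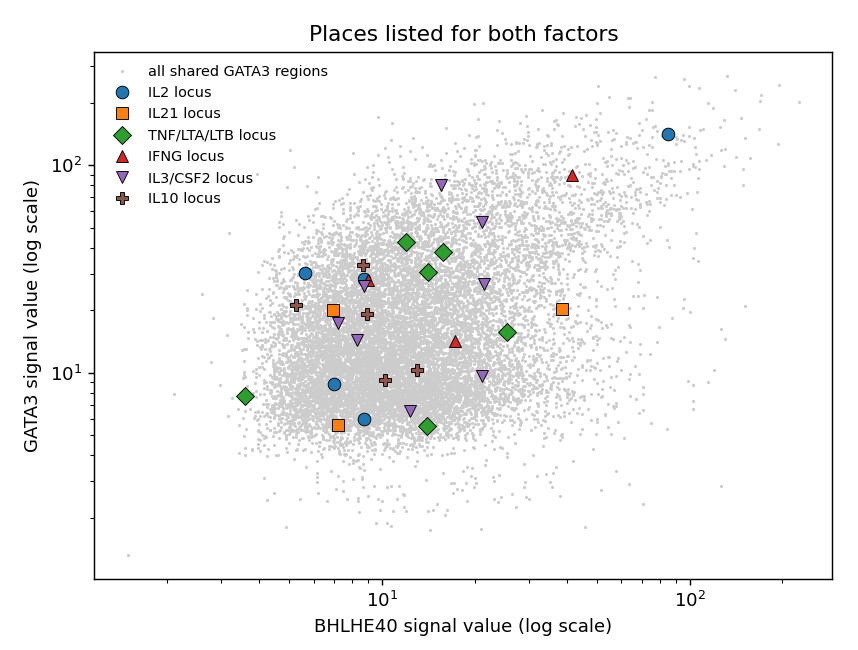
GATA3 signal against BHLHE40 signal (both on log scales) for GATA3 regions that overlap a BHLHE40 region, with the 14123 of the whole list in grey and the 30 at the cytokine loci as symbols by locus. The regions upstream of IL2 (140.9 and 85.3) and IFNG (89.3 and 41.5) lie at the upper right.

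H3K27ac overlapped 28 of 48 GATA3 regions (58.3%, 43.2 to 72.4), beside 49.1% of the whole list, and 30 of 39 BHLHE40 regions (76.9%, 60.7 to 88.9), beside 76.4%. Both whole-list shares lay inside these intervals. The shares depend on the definition. With H3K27ac regions of −log10 q of at least 5 they were 33.3% for GATA3 and 51.3% for BHLHE40. By the factor's summit inside an H3K27ac region they were 43.8% and 48.7%. Whole-list shares by these stricter definitions were not computed, so these values cannot be set beside 49.1% and 76.4%. Of the GATA3 regions, 24 had both BHLHE40 and H3K27ac, 6 had BHLHE40 alone, 4 had H3K27ac alone and 14 had neither. These are 50.0%, 12.5%, 8.33% and 29.2% of the 48, beside 37.7%, 11.02%, 11.5% and 39.9% of the whole list. Their median signals were 24.03, 16.7, 17.7 and 9.81 in that order, against whole-list medians of 13.0, 16.3, 10.4 and 10.1. Of the 39 BHLHE40 regions 3 (7.69%, beside 11.7% of the list) had neither GATA3 nor H3K27ac: those at the far end of IL2, upstream of CSF2 and at MCCD1 near LTA. In the other direction, 30 of 88 H3K27ac regions (34.1%) overlapped GATA3, beside 15.3% of the whole list, and 36 (40.9%) overlapped BHLHE40, beside 22.9%.

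The median signal of the GATA3 regions was somewhat above that of the whole list, and the medians of the BHLHE40 and H3K27ac regions were not. The median GATA3 signal was 15.01, against 11.2 for the list, and 7 of 48 regions were in the top 10% of it. The median BHLHE40 signal was 8.98 against 9.35, with 4 of 39 in the top 10%, and the median H3K27ac signal was 3.12 against 3.31, with 12 of 88 in the top 10%. By −log10 q the H3K27ac regions were above their list: 37.5% had at least 5, against 25.1%, and the median was 3.71 against 3.00. Summits lay in no gene record for 28 of 48 GATA3 regions (58.3%), against 31.9% of the list, and for 19 of 39 BHLHE40 regions (48.7%), against 34.1%. Of the rest, 5 GATA3 and 2 BHLHE40 summits lay in the record of a cytokine gene of the set, and 15 and 18 in the record of another gene.

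The receptors for these cytokines and the factors that drive their transcription gave other counts. Listed starts were missing for some genes, so regions within 1 kb of the whole gene record were counted, a choice made after seeing the data. The shares over all protein-coding genes by this count were 42.8% for GATA3, 57.7% for BHLHE40 and 73.5% for H3K27ac. Longer records have more room for a region, and the cytokine genes are short. The 9 cytokine genes had 5, 4 and 5, and IL2, LTA and IL10 had all 3, as did 37.1% of protein-coding genes. The 14 receptor genes had 10, 8 and 11. CSF2RA, CSF2RB and IL3RA, the receptor genes for GM-CSF and interleukin 3, had no region of any list. This state was shared by 23.98% of protein-coding genes, so it does not set these receptor genes apart. Absence from a list also does not show absence of binding. By the same count CSF2 itself had no GATA3 or BHLHE40 region, whereas IL3 had both. Among 21 other T-cell cytokine genes the counts were 11, 9 and 14, and 6 had no region. Among 20 genes of activation-induced and T-cell transcription factors they were 17, 18 and 19, and IRF4 alone had none.

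At listed starts, the receptor genes with the highest BHLHE40 signals were IL21R (15.1), IL2RG (13.4), the shared receptor chain of IL-2 and IL-21, and IFNGR1 (9.25). None of the 12 receptor genes with a listed start had GATA3 there, 5 had BHLHE40 (41.7%) and 7 H3K27ac (58.3%). Over the 15843 protein-coding genes with a listed start the shares were 23.7% for GATA3, 49.6% for BHLHE40 and 57.6% for H3K27ac, and 40.1% had no region. TNFRSF1B, LTBR, CSF2RA, IL3RA and IL10RA had no region of any list at the start. Of the 13 other cytokine genes with a listed start, 4 had GATA3, 4 BHLHE40 and 5 H3K27ac, led for BHLHE40 by TGFB1 (21.0), IL16 (13.5) and FASLG (8.48). IL9, IL17A, IL17F, IL6 and IL12A had none. Of 19 transcription factor genes, 10, 16 and 17 had a region at the start, with the highest BHLHE40 signals at EGR1 (49.9), JUNB (39.9) and RUNX1 (29.2), and none at IRF4 and MAF.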

How the data were processed

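3 kinds of ChIP-seq peak list were used, each deposited for a group of 2 samples, and the other 16 of 19 groups were not analysed here. Per the submitters' processing notes, bcl2fastq 2.20 and MACS2 were used with hg38; the aligner is not given in the sources used here. The factor lists passed an IDR threshold of 0.05, per their names, so weak but repeatable regions stay in, whereas the H3K27ac list was pooled and holds many weak regions. Per region the authors deposited a score (540 to 1000 for the factors), a signal value of unstated reference, and −log10 q values.

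Regions overlapping a RefSeq GRCh38.p14 record plus 50 kb were counted with Python 3.11.15, pandas 2.3.3 and numpy 2.4.6. Overlap needed 1 bp, and intervals (scipy 1.17.1) were exact binomial. All 9 genes matched the gene and promoter tables; exons, introns and UTRs were not told apart. Named were all regions within 1 kb of a start, up to 3 of the strongest per factor and locus and, of each comparison list, the 3 genes with the highest BHLHE40 signal and up to 5 with no region; others were named after their values were seen. Counting was tested on simulated data. Genes and lists were chosen with earlier results of these data known. 1 marker list is not reported here.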

Additional observations from a re-analysis of the deposited data

How the results depend on the processing

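Of 56 recalculations of 9 counts and shares over the whole set, 44 stayed within the limits set for a change and 12 did not. The counts of single gene windows were less stable: with 20 or 100 kb on each side, 44 moved beyond the limits and 10 did not. With 20 kb on each side the windows held 21 GATA3, 20 BHLHE40 and 39 H3K27ac regions, and 60.0% of BHLHE40 regions overlapped H3K27ac. With 100 kb they held 76, 59 and 157. Requiring a −log10 q of at least 5 left 33 H3K27ac regions, which overlapped 33.3% of GATA3 and 51.3% of BHLHE40 regions. The BHLHE40 summit itself lay in an H3K27ac region in 48.7%. Within 2 kb of a start, 5 genes had H3K27ac, since LTB and IL3 were added. Of the 56 recalculations, 15 were chosen after seeing the data. They used the outermost start only, left out the TNF, LTA and LTB locus, or left out regions at other genes' starts.

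No paired analysis was possible because a deposited region carries 1 value for both samples of its group, and for the same reason leaving out each sample in turn was not run. The depth of the samples is unknown.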
